A study of Rattus norvegicus with 16 samples.

Results

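The genes described here encode the nuclear subunits of the mitochondrial respiratory chain and of ATP synthase in liver and epididymal fat of obese rats fed R-α-lipoic acid (LA) or pair-fed without it (PF). They were chosen by symbol alone: every symbol in the deposited tables that begins with Nduf and a subunit letter and number, is Sdha to Sdhd, or begins with Uqcr, Cox4 to Cox8 or Atp5. That gave 81 of 22517 symbols: 36 for complex I, 4 for complex II, 7 for complex III, 18 for complex IV and 16 for ATP synthase. Ndufa4 was counted with complex IV, where its protein resides. Of the 81 symbols, 62 matched current RefSeq rat symbols and 19 matched older names of listed genes, such as Atp5b (now Atp5f1b), Atp5g1 (now Atp5mc1) and Uqcr (now Uqcr11). By those names 3 are not subunits: Cox4nb (now Emc8) belongs to a membrane protein insertion complex of the endoplasmic reticulum, and Atp5s (now Dmac2l) and Atp5sl (now Dmac2) are relatives of each other that do not form part of the enzyme. Cox6c1 is listed as a pseudogene.

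All animals were male ZDF/GmiCrl-fa/fa rats. The fa allele is a loss-of-function form of the leptin receptor gene, homozygous in LA and PF rats alike, and no lean rats were sequenced. The rats were bought at 7 weeks of age and ate Purina 5008 chow. From 9 to 11 weeks of age, for 2 weeks, 4 rats received Purina 5008+LA and 4 received Purina 5008 in pair-fed amounts. RNA of liver and epididymal fat gave 4 groups of 4 libraries (liver PF, liver LA, fat PF, fat LA), 16 in all; the labels do not say which liver and fat library came from 1 rat. Values are FPKM, fragment counts normalised for transcript length and library size, so that levels of different genes can be set side by side.

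The respiratory chain passes electrons from NADH (complex I) and succinate (complex II) through ubiquinone, complex III and cytochrome c to oxygen at complex IV. Complexes I, III and IV pump protons, and ATP synthase uses the returning protons to make ATP. Most subunits are encoded in the nucleus, and those genes are known to share binding sites for NRF1 and for the ETS-family factor GABP near their start sites. White fat cells hold fewer mitochondria than hepatocytes, and in both cell types these organelles burn fatty acids and supply carbon for lipid synthesis.

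Promoters are shown for 4 members that carry differences reported below, Ndufv3 and Ndufa1 for feed in liver and Cox8a and Atp5g1 for tissue. That of Atp5g2 is added because it encodes the same mature protein as Atp5g1. On the deposited scale Atp5g2 did not pass between tissues. With each library centred on its median, it passed in PF rats only, lower in fat (log2 fold change -1.035). The windows hold the 250 bases before the annotated start, from RefSeq, build GRCr8, written 5′ to 3′ on the gene's strand. Capitals mark matches on either strand to an NRF1-type motif, GCGCATG, which is part of the palindromic NRF1 site, or to an ETS-type motif, CCGGAAG. No match to 1 motif overlapped a match to the other in these windows. Ndufv3 (chr20:9613536-9613785, plus strand) and Atp5g1 (chr10:81523346-81523595, minus strand) held neither motif. Ndufa1 (chrX:121293556-121293805, minus strand) held 1 ETS-type match, Cox8a (chr1:213833624-213833873, minus strand) held 2, and Atp5g2 (now Atp5mc2, chr7:135678219-135678468, minus strand) held 2 NRF1-type matches, 1 on each strand of the same site.
Ndufv3: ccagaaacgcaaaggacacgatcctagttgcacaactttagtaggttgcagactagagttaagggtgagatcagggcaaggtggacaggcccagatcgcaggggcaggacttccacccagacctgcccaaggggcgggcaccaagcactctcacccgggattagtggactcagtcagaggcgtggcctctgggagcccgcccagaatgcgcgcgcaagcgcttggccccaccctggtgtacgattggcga
Ndufa1: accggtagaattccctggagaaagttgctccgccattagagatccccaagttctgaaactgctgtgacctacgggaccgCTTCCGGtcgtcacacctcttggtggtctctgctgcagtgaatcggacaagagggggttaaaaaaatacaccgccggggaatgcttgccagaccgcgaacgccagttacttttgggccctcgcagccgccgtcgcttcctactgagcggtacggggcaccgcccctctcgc
Cox8a: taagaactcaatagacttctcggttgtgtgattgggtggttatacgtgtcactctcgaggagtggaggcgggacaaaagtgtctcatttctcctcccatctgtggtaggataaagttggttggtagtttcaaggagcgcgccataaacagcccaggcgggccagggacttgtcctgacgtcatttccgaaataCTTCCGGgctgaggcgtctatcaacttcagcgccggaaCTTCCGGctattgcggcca
Atp5g1: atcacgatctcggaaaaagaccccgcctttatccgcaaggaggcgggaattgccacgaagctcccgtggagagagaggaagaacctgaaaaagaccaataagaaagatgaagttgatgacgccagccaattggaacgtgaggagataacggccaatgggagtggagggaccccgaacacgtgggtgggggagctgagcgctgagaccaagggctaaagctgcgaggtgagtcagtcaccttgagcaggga
Atp5g2: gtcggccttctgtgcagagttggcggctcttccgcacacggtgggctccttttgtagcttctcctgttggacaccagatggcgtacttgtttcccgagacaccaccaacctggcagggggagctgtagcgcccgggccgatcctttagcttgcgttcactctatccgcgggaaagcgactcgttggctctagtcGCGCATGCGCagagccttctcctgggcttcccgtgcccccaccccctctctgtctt
A promoter was listed for 69 members, of which 12 (17.4%) held the NRF1-type motif and 20 (29.0%) the ETS-type motif, and 27 held at least 1 of them. Among all 33469 windows of that length the shares were 3.26% and 7.27%. The median GC content was 56.0% in the members' windows and 51.2% in all windows. A match is a run of letters and not a measured binding site.

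All 16 libraries were of similar depth: relative to the shallowest liver PF library, 1 fragment was worth between 0.722 and 1 times as much, with the lowest value in liver LA. The 4 libraries of a group correlated at r = 0.986 to 0.996 across genes, and no pair was identical. Of 8 adipocyte markers, Adipoq, Lep, Plin and Retn were at 0 in every liver library. The other markers of that list were not, and the 8 summed to 58.1 to 72.0 FPKM in liver, mostly Cidec (48.5 to 60.7 FPKM). In fat, the brown fat marker Ucp1 was at 0 to 0.0782 FPKM, while Cidea, another gene of the brown fat list, was at 179.8 to 287.3 FPKM. The epididymis and testis markers Crisp1, Defb1, Prm1, Tnp1 and Odf1 were listed at 0 in all 16 libraries, liver included, which gives no level for them. Alb, which every hepatocyte makes in bulk, was listed at 0 in all liver libraries, so a 0 in these tables can be a failed estimate. Among the members, Ndufa11, Ndufs6 and Cox6c1 were listed at 0 in all 16 libraries. For Ndufa11 and Ndufs6, subunits of every complex I, the listing gives no level.

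The ATP synthase and complex IV genes were the most abundant. Atp5b, the catalytic beta subunit of ATP synthase, had the highest mean over the 16 libraries, 1237 FPKM, and Cox8a, a small subunit of complex IV, followed in its complex with 894.9 FPKM. The other complexes were led by Uqcr of complex III at 314.4 FPKM, Ndufb9 of complex I at 294.2 FPKM and Sdhc, a membrane anchor of complex II, at 250.4 FPKM. Among members that reached 1 FPKM in 4 or more libraries, the lowest in these complexes were Uqcrq at 78.35 FPKM, Ndufs4 at 40.78 FPKM and Sdha, the flavoprotein of complex II, at 164 FPKM. Ndufa10l1, listed under complex I, did not reach that level, at 0 to 0.103 FPKM. At the bottom of the ATP synthase list stood Atp5s, the non-subunit, with 5.16 FPKM. Median member levels over the 16 libraries were 119.7 FPKM in complex I, 186.5 in complex II, 164.3 in complex III, 402.5 in complex IV and 307.2 in ATP synthase, counting only genes that reached that level.

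Summed over all members, the genes gave 17914 ± 701 FPKM in liver PF, 16905 ± 1003 in liver LA, 22087 ± 3578 in fat PF and 20382 ± 3121 in fat LA (mean ± SD, n = 4 each). These sums were 3.04%, 3.15%, 4.01% and 3.64% of all FPKM. In liver the PF and LA ranges (17055 to 18539 and 16213 to 18364) overlapped, and in fat (17034 to 24643 and 17567 to 23826) they overlapped almost wholly. Complex IV was at 4818 ± 306 FPKM in liver PF and 6970 ± 1103 in fat PF. Complex II was at 769 ± 23.0 FPKM in liver PF and 876 ± 135 in fat PF. The order of the tissues depends on the scale: with each library centred on the median of its log2 values, the sum over all members was higher in liver, 22276 FPKM in PF and 20762 in LA, than in fat, 17866 and 16475. Complex IV was then at 5991 FPKM in liver PF and 5638 in fat PF, and complex II at 956 and 708.

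**Figure D1:**
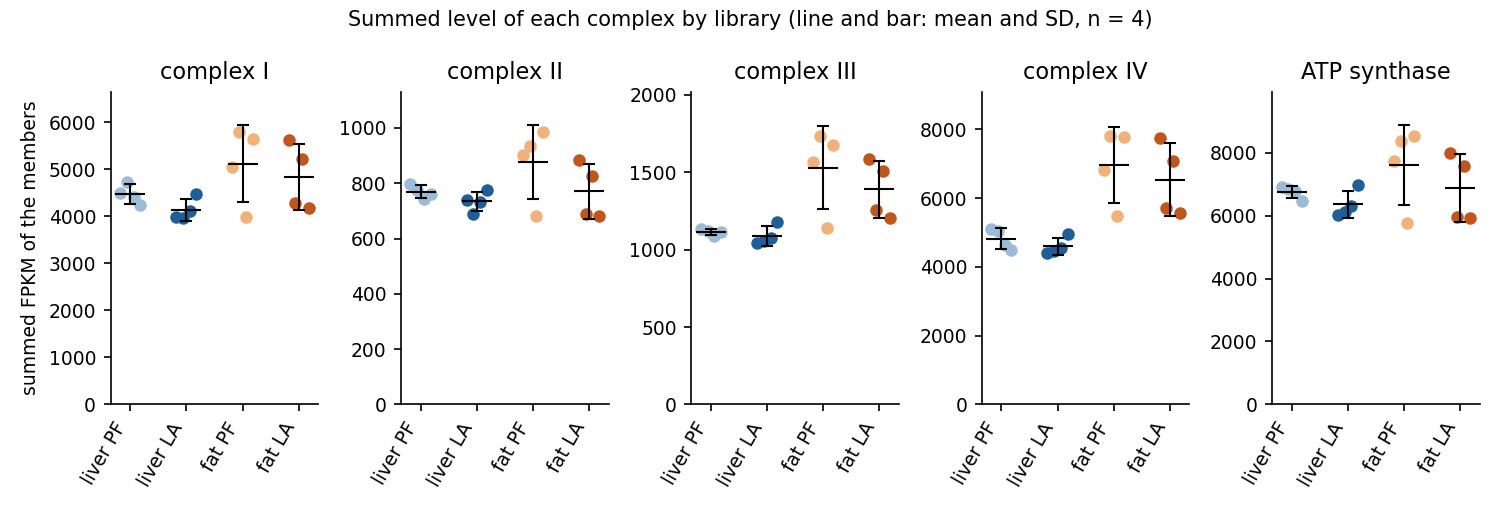
Summed FPKM of the members of each complex in each library, with points for libraries, lines for means and bars for SD (n = 4). The summed FPKM of fat libraries spreads more widely than that of liver libraries in all 5 panels, and the LA and PF points of fat overlap.

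The largest pattern within fat was between libraries of the same feed. In fat PF the summed levels were 22067, 24643, 17034 and 24606 FPKM in replicates 1 to 4. In fat LA they were 23826, 17918, 22215 and 17567 FPKM. Thus PF replicate 3 and LA replicates 2 and 4 were low and the other 5 libraries high, and the coefficient of variation was 16.2% in fat PF and 15.3% in fat LA, against 3.91% in liver PF and 5.93% in liver LA. The summed FPKM of all genes was also lowest within each feed in those libraries, at 539921, 591659, 503569 and 559553 in PF replicates 1 to 4 and 602670, 522413, 580391 and 527553 in LA. As a share of all FPKM the members made up 4.09%, 4.17%, 3.38% and 4.40% in PF and 3.95%, 3.43%, 3.83% and 3.33% in LA. The same 3 libraries were lowest on that scale, with a smaller spread: the coefficient of variation of the share was 10.9% in fat PF, 8.31% in fat LA, 3.05% in liver PF and 4.84% in liver LA. Genes at 1 FPKM or more numbered 11320, 11353, 11480 and 11337 in fat PF replicates 1 to 4. In fat LA they numbered 11276, 11439, 11375 and 11438, so the same libraries of each feed had the most. The relative value of 1 fragment was 0.961, 0.775, 0.788 and 0.899 in PF and 0.866, 0.739, 0.841 and 0.755 in LA. It was lowest in LA replicates 2 and 4, but in PF it was lowest in replicate 2. The part of the library total, gene number and depth in the spread was not tested.

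The members shared this pattern gene by gene. On the log2(FPKM + 1) scale, the mean difference from the 8-library mean over the 75 members tested was 0.05, 0.22, -0.28 and 0.20 in PF replicates 1 to 4, and 0.18, -0.20, 0.08 and -0.25 in LA replicates 1 to 4. The range over libraries was thus 0.50, while the difference of the feed means was -0.10. PF replicate 3 was the lowest of the PF libraries in 73 of 75 members (97.3%), against 29.9% of the 11501 genes tested. LA replicates 2 and 4 both lay below LA replicates 1 and 3 in 70 of 75 members (93.3%), against 32.6% of genes. These 3 libraries were the lowest of 8 in 65 of 75 members (86.7%), against 13.0% of genes. These patterns were read from the libraries themselves, so the shares describe them and are no test. In these bulk samples, fewer cells of a type and less RNA per cell cannot be told apart.

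**Figure D2:**
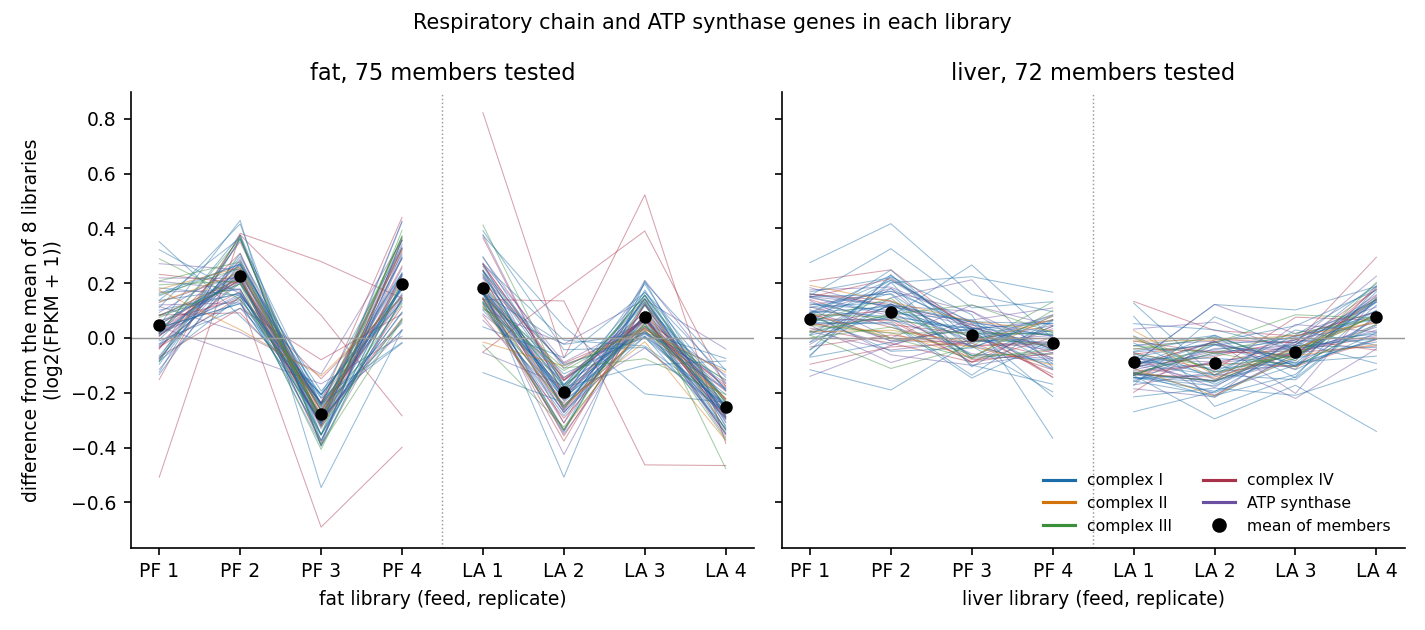
Difference of each gene from its mean over the 8 libraries of a tissue, in log2(FPKM + 1), with thin lines for genes coloured by complex and black points for the mean of the members. In fat PF replicate 3 and LA replicates 2 and 4 the black points lie at -0.28, -0.20 and -0.25, and the gene lines move in parallel; in liver the black points stay between -0.09 and 0.09.

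Each complex placed the same 3 libraries lowest. In PF replicate 3 the mean difference was -0.29 for complex I, -0.25 for complex II, -0.33 for complex III, -0.23 for complex IV and -0.28 for ATP synthase. In LA replicate 4 it was between -0.29 (complex III) and -0.24 (complexes I and II). Atp5b was at 1664, 1638, 1122 and 1645 FPKM in fat PF replicates 1 to 4 and at 1442, 1178, 1344 and 1137 FPKM in fat LA. Cox8a was at 1283, 1523, 1075 and 1405 FPKM in fat PF and 1432, 1147, 1334 and 1096 in fat LA. Both genes placed the same 3 libraries lowest. The highest over the lowest of the 8 fat libraries was 1.53 in the median member, from 1.24 for Sdha to 8.18 for Cox6a2, the muscle form of a complex IV subunit, which is close to 0 in fat (0.348 to 2.85 FPKM).

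The spread within a feed was largely shared between members. The median SD of log2(FPKM + 1) over the 4 libraries was 0.255 in fat PF and 0.222 in fat LA, above the 0.181 and 0.172 of all genes tested in those groups and the 0.189 and 0.171 of genes at 50 FPKM or more. After the mean of the members was subtracted from each library, the medians were 0.0928 and 0.063. Liver members varied less than liver genes at large, with medians of 0.0857 in liver PF and 0.0997 in liver LA against 0.134 and 0.13. By complex the fat PF medians ran from 0.246 (complex IV) to 0.290 (complex III), and the fat LA medians from 0.206 (complex II) to 0.251 (complex IV). Without fat PF replicate 3 the fat PF median was 0.124, so that library carried much of the PF spread.

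Few members departed from the shared shift. In fat PF the largest SDs belonged to Ndufb7, an accessory subunit of complex I (0.402), Cox6a2 (0.393) and Cox6b2, a complex IV subunit best known from testis (0.391). Ndufb7 was at 166.4, 217.2, 110.0 and 164.3 FPKM, with replicate 3 lowest and replicate 2 highest. Cox6b2 was at 9.56, 18.5, 14.9 and 11.3 FPKM and did not follow it, since replicate 3 was its second highest. In fat LA the largest SDs were those of Cox6a2 (0.549), Ndufc1, an accessory subunit of complex I (0.362), and Cox4i2, the alternative form of complex IV subunit 4 (0.348). Ndufc1 had replicates 1 and 3 above 2 and 4, at 140.0, 86.2, 142.3 and 98.0 FPKM, whereas Cox4i2 was at 4.53, 4.51, 2.64 and 2.64 FPKM, with replicate 2 among its high libraries.

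Other gene groups moved with the members in fat. These comparison families were chosen after the pattern had been seen. The mean difference of 68 mitochondrial ribosomal protein genes was -0.01, 0.19, -0.20 and 0.14 in PF replicates 1 to 4 and 0.15, -0.18, 0.09 and -0.19 in LA replicates 1 to 4. The 38 proteasome genes gave -0.02, 0.16, -0.25 and 0.12, then 0.24, -0.18, 0.06 and -0.14. Both families thus placed the same 3 libraries lowest. For 12 citrate cycle genes the values were 0.25, 0.07, -0.17 and 0.18 in PF and 0.00, -0.14, -0.02 and -0.18 in LA. The 71 cytosolic ribosomal protein genes gave -0.27, 0.14, -0.14 and -0.01 in PF and 0.25, -0.13, 0.13 and 0.04 in LA. They shared the order in part. Within LA, replicates 2 and 4 lay below 1 and 3, as for the members. In PF, replicate 1 was lowest and replicate 3 second lowest. The 10 regulators measured, Nrf1, Gabpa, Esrra and Tfam among them, stayed between -0.06 and 0.06, and the median gene between -0.04 and 0.02.

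Cell type markers in the same libraries were as follows. The summed level of 8 adipocyte markers was 39660, 38210, 34430 and 35840 FPKM in fat PF and 42790, 36540, 42000 and 36450 in fat LA, lowest in PF replicate 3 and, within LA, in replicates 2 and 4. Fabp4 made up most of that sum, and gene by gene the order was not the same: the mean log2 difference of the 8 markers was 0.11, -0.02, -0.10 and -0.07 in PF and -0.00, 0.03, 0.07 and -0.02 in LA, and Adipoq was lowest in LA replicate 1, at 4908 FPKM. The 4 mesothelium markers summed to 38.4, 271.5, 292.9 and 173.2 FPKM in PF and 105.4, 308.8, 230.3 and 329.5 in LA, highest in those libraries of each feed. The 12 macrophage markers, of which Emr1 and Marco were at 0, summed to 1110, 1339, 890.2 and 1270 FPKM in PF and 2491, 1246, 1652 and 1341 in LA. Endothelial markers (4 measured) summed to 93.8 to 133.3 FPKM in PF and 90.6 to 130.7 in LA, and 8 hepatocyte markers to 414.8 to 977.8 FPKM in PF and 88.7 to 855.7 in LA. The part of these cell markers in the shift of the respiratory genes was not tested.

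Under LA, 2 respiratory genes fell in liver. Both encode accessory subunits of complex I: Ndufv3, which sits in the module that binds NADH, and Ndufa1, a small X-linked subunit of the membrane arm. The test was limma on log2(FPKM + 1) with Benjamini-Hochberg adjustment over all 9710 genes tested, called at an adjusted p under 0.05. It called 2 of 72 members, both lower, against 4.48% of all genes in either direction and 2.21% lower, so the members' share is near the background. Cox4i2, Cox6a2, Cox6b2, Cox6c1, Cox8b, Cox8c, Ndufa10l1, Ndufa11 and Ndufs6 were too low to be tested in liver.

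Ndufv3 was at 188.3, 207.9, 173.6 and 166.2 FPKM in liver PF and at 141.3, 126.5, 137.8 and 122.5 FPKM in liver LA. Every LA library lay below every PF library, and the log2 fold change was -0.47 (SE 0.088, limma adjusted p = 0.0142). Ndufa1 was at 111.5, 125.7, 108.1 and 109.8 FPKM in liver PF and 86.1, 88.1, 86.4 and 92.4 FPKM in liver LA. Its groups did not overlap either, with a log2 fold change of -0.36 (SE 0.071, limma adjusted p = 0.0181). Without liver LA replicate 2 neither gene passed (adjusted p = 0.0501 for Ndufv3 and 0.0555 for Ndufa1), and Ndufa1 did not pass without liver LA replicate 3 (0.0503) or in a model of all 16 libraries (0.094). Fold changes stayed at -0.52 to -0.41 for Ndufv3 and -0.38 to -0.31 for Ndufa1 when any liver library was left out.

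Most other liver members lay slightly below 0 on the deposited scale. Of 72 members 58 had a log2 fold change below 0 and 14 above, whereas 49.4% of all genes were above 0. The median was -0.06, beside -0.00 for all genes: -0.09 in complex I, -0.05 in complex II, -0.05 in complex III, -0.03 in complex IV and -0.10 in ATP synthase. The 2 groups did not overlap for 10 members, 9 of them lower, beside 12.3% of all genes in either direction and 6.39% lower. As a share of all FPKM the direction was the other one, since the mean of each complex was higher in liver LA than in liver PF: 0.771% and 0.759% for complex I, 0.137% and 0.131% for complex II, 0.203% and 0.190% for complex III, 0.857% and 0.818% for complex IV, and 1.19% and 1.15% for ATP synthase. An unadjusted limma p under 0.05 was found for 10 of 72 members and 20.1% of all genes. The complex I genes included the core subunit Ndufs1, which lay above 0 at 0.16 (limma adjusted p = 0.303).

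Genes around the chain were not lower in the median. Among 35 assembly factors in liver, 20 were above 0, the median was 0.05, and 1 rose: Lrpprc, which stabilises mitochondrial mRNA, by a log2 fold change of 0.52 (SE 0.097, limma adjusted p = 0.0142). Among the citrate cycle genes Ogdh, a subunit of 2-oxoglutarate dehydrogenase, rose by 0.30 (limma adjusted p = 0.0314), and none fell. None of 10 regulators passed, Pprc1 being nearest at 0.40 (limma adjusted p = 0.0651). Hepatocyte markers (7 of the 8 in the tables above 0, Alb at 0) summed to 42300 to 52630 FPKM in liver PF and 32630 to 42170 in liver LA, and the 12 macrophage markers to 124.4 to 151.6 in PF and 166.6 to 226.4 in LA. The part of these markers in the liver values was not tested.

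**Figure D3:**
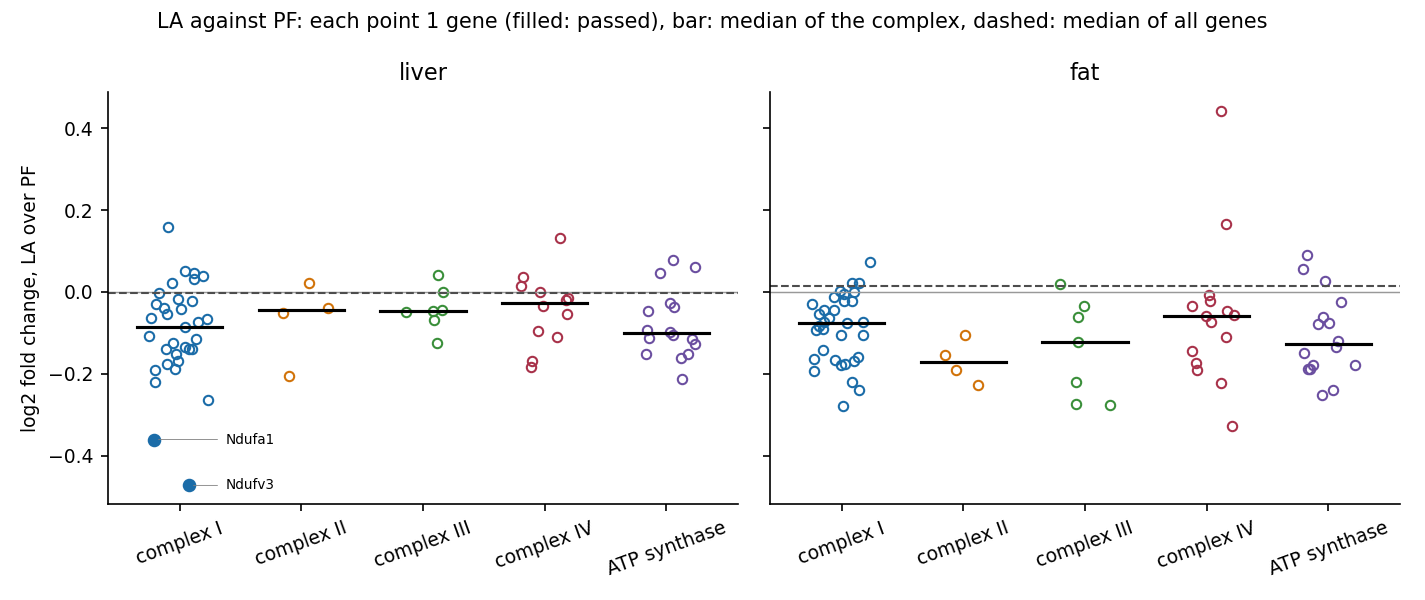
Log2 fold change of LA over PF for each tested member, by complex, in liver and fat, with bars for the median of each complex, a dashed line for the median of all genes and filled points for genes that passed. Only Ndufv3 and Ndufa1 in liver are filled, and most points in both tissues lie below 0.

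In fat no member passed the feed comparison. The same limma test called 0 of 75 members, against 0.0174% of the 11501 genes tested, and 0 members had an unadjusted p under 0.05, against 3.92% of genes. In 0 members did the feeds fail to overlap, against 2.08% of genes. Cox6c1, Cox8b, Cox8c, Ndufa10l1, Ndufa11 and Ndufs6 were not tested. Of the 75 members 64 had a log2 fold change below 0, although 55.3% of all genes were above 0. The median was -0.09 beside 0.01 for all genes, with -0.08 in complex I, -0.17 in complex II, -0.12 in complex III, -0.06 in complex IV and -0.13 in ATP synthase. These medians moved with single libraries: without fat PF replicate 3 the overall median was -0.19, and without fat LA replicate 4 it was -0.03.

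The 2 members with the smallest p in each complex show the overlap of feeds. Ndufs1, an iron-sulfur core subunit of complex I, was at 91.9, 76.0, 62.2 and 90.7 FPKM in fat PF and 65.7, 60.9, 74.6 and 60.3 in fat LA. Its log2 fold change was -0.28 (SE 0.136, limma adjusted p = 0.9997). PF replicate 3 lay within the LA range. Uqcrc2, a core protein of complex III, was at 194.9, 175.8, 133.9 and 205.6 FPKM in PF and 156.5, 127.0, 164.3 and 134.9 in LA, with a log2 fold change of -0.27 (SE 0.147). Cox4i2 gave -0.33 (SE 0.184), Sdhc -0.23 (SE 0.166), Atp5s -0.18 (SE 0.116) and Atp5b -0.24 (SE 0.156). The others were Ndufa10 (-0.24), Sdhd (-0.19), Uqcrb (-0.28) and Cox6a2, near the limit of measurement, with the largest positive value at 0.44 (SE 0.285). All of these had a limma adjusted p of 0.9997. Among related genes in fat, 0 of 35 assembly factors, 0 of 12 citrate cycle genes and 0 of 10 regulators passed, with medians of -0.07, -0.17 and 0.01.

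The feed effects of fat and liver were compared directly in 1 limma model of 16 libraries, as the LA minus PF difference in fat less that in liver. Of 75 members 0 passed, against 0.381% of 12079 genes, and 3 had an unadjusted p under 0.05, against 8.2% of genes. The 3 were Ndufv3 at 0.44 (SE 0.155, limma adjusted p = 0.353), Ndufs1 at -0.44 (SE 0.162, limma adjusted p = 0.405) and Ndufa1 at 0.38 (SE 0.152, limma adjusted p = 0.468). In fat Ndufv3 was at 170.7, 194.6, 138.5 and 168.3 FPKM in PF and 169.9, 157.1, 185.4 and 144.5 in LA, a log2 fold change of -0.03 (SE 0.123). Ndufa1 in fat gave 0.02 (SE 0.132). The liver decreases of these genes were therefore not shown to differ from their values in fat. Outside the members, Lrpprc (-0.64, limma adjusted p = 0.0455) did differ between tissues, the only 1 of 35 assembly factors to pass.

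Between tissues, fat was compared with liver in PF rats and, separately, in LA rats, with a call needing also a log2 fold change over 1 in size. In PF rats 10 of 74 members passed, 9 higher and 1 lower in fat, against a background of 47.4% of the 11492 genes tested (36.3% higher and 11.1% lower). In LA rats 9 of 74 passed, 8 higher and 1 lower, against 46.4% of 11568 genes (36% higher and 10.5% lower). The libraries of the tissues did not overlap for 34 members in PF and 39 in LA, against 80.2% and 79.9% of genes, and 56 and 53 members had a log2 fold change above 0, against 75.4% and 75.9%. The 8 genes that passed under both feeds were Cox6b2, Cox4i2, Cox8a, Cox7a2l, Cox4nb, Uqcr and Atp5s, higher in fat, and Atp5g1, lower in fat. Cox6b2 and Cox4i2 reached 1 FPKM in fat libraries only, so the filter admitted them through fat and their calls are no independent test. Ndufb3 and Ndufs4 passed in PF only and Ndufb8 in LA only; whether the feeds differ in these genes was not shown, as none passed the comparison of feed effects.

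Scale matters here, because the median gene itself was 0.66 higher in fat in PF rats and 0.65 in LA rats. The median member was 0.24 higher under both feeds, below the median gene. By complex the PF medians were 0.22 for complex I, 0.06 for complex II, 0.27 for complex III, 0.81 for complex IV and 0.19 for ATP synthase, and the LA medians 0.25, 0.03, 0.20, 0.73 and 0.17. Complex IV alone lay above the median gene under both feeds, but its median includes the non-subunit Cox4nb, and Cox6b2 and Cox4i2, admitted through fat alone. Leaving out any 1 fat library puts Cox6b2 and Cox4i2 below the filter. The complex IV median then fell as low as 0.52 in PF (without replicate 2) and 0.49 in LA (without replicate 1), over a smaller set of genes. Centring each library on its median, which moved values by 0.58 in PF and 0.63 in LA, left 10 members called under each feed but turned the split to 3 higher and 7 lower in PF and 2 higher and 8 lower in LA. Cox6b2 and Cox4i2 stayed higher and Atp5g1 stayed lower under both scales and both feeds, and Atp5s stayed higher in PF. After centring, Cox7b, Ndufa6, Ndufa8, Ndufc1 and Uqcrq were lower in fat under both feeds.

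**Figure D4:**
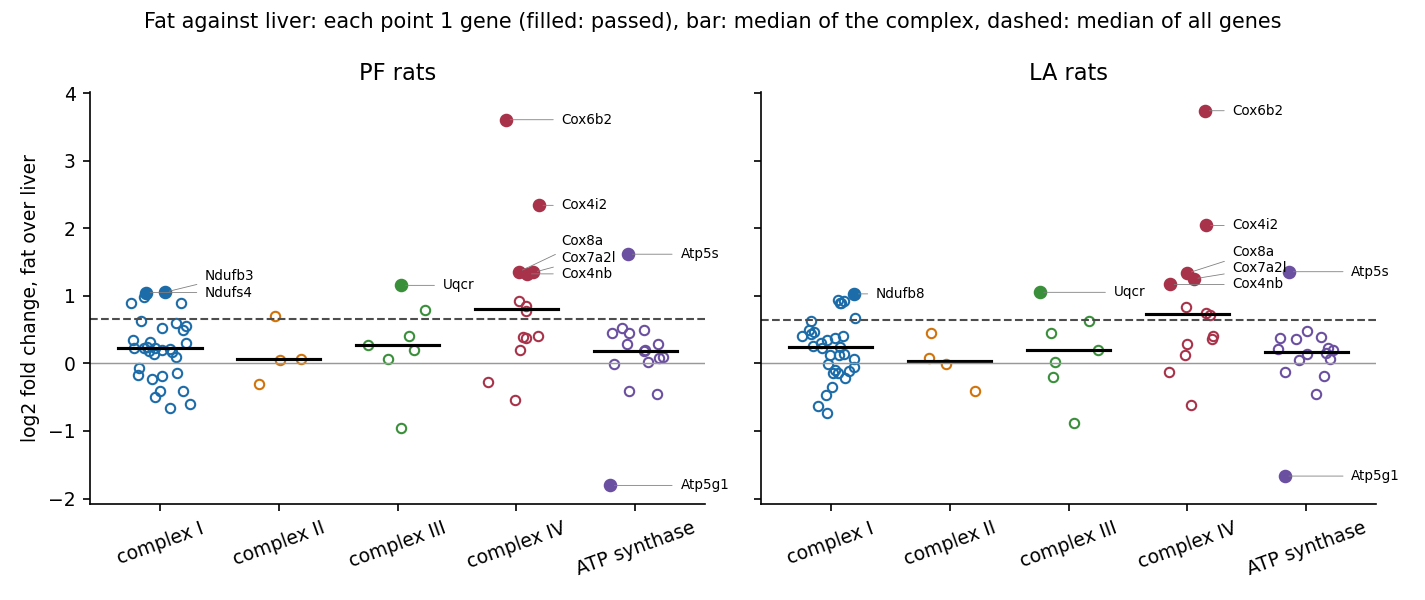
Log2 fold change of fat over liver for each tested member, by complex, in PF and LA rats, with bars for the median of each complex, a dashed line for the median of all genes (0.66 and 0.65) and filled points for genes that passed. Complex IV, with Cox6b2 and Cox4i2 admitted through fat alone, lies highest, and Atp5g1 stands alone at the bottom in both panels. After median centring, of the filled points only Cox6b2, Cox4i2, Atp5g1 and, in PF, Atp5s still pass.

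The largest log2 fold changes between tissues were those of Cox6b2 and Cox4i2, complex IV genes with alternative forms, both admitted through fat alone. Among the other members in PF rats, the largest were in the ATP synthase list, Atp5g1 at -1.81 and the non-subunit Atp5s at 1.62. Cox6b2 was at 0 to 0.314 FPKM in the 8 liver libraries, 9.56 to 18.5 FPKM in fat PF and 12.3 to 18.7 in fat LA. Its log2 fold change was 3.61 in PF (SE 0.179) and 3.74 in LA (SE 0.139). Like Cox4i2 below, it passed the filter only through the fat libraries, so no p-value is given for it. The tissues are far apart. Of 10 testis and epididymis markers in the tables, Cox6b2 among them, 6 were listed at 0 in each fat group, 5 of them in all 16 libraries, and the list summed to 10.3 to 21.2 FPKM in fat PF and 12.7 to 19.3 in fat LA, of which Cox6b2 was the greater part. Lcn5, an epididymal secretory protein gene, was at 9.61 FPKM in fat PF replicate 4 and at 0 in the other fat libraries. Cox4i2, known as a form induced by low oxygen, was at 0 to 0.298 FPKM in liver PF and 3.52, 5.54, 5.09 and 4.55 FPKM in fat PF, a log2 fold change of 2.34 (SE 0.139). In LA rats it was at 0 to 0.404 FPKM in liver and 2.64 to 4.53 in fat, a log2 fold change of 2.04 (SE 0.181). Even so it made up 0.464% ± 0.119 of the summed Cox4i1 and Cox4i2 level in fat PF and 0.354% ± 0.107 in fat LA (SD, n = 4), so that Cox4i1, at 808.4 to 1173 FPKM in fat PF, was nearly all of it.

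Cox8a and Cox7a2l were also higher in fat on the deposited scale. Cox8a was at 543.7, 516.2, 492.9 and 497.6 FPKM in liver PF, below every fat PF library (1075 to 1523), a log2 fold change of 1.35 (SE 0.133), and 1.34 (SE 0.118) in LA rats. Cox7a2l, which joins complexes III and IV in supercomplexes, was at 48.8 to 50.3 FPKM in liver PF and 112.0 to 138.0 in fat PF, a log2 fold change of 1.35 (SE 0.091), with 1.25 (SE 0.129) in LA rats. It made up 12.6% ± 0.899 of the summed Cox7a2 and Cox7a2l level in liver PF and 22.0% ± 1.74 in fat PF, with 13.1% ± 0.694 and 23.0% ± 1.2 in LA (SD, n = 4). Such shares within a library do not depend on its scale. Not every abundant complex IV gene lay higher in fat: Cox7b was at 672.2 to 789.4 FPKM in liver PF and 401.5 to 642.0 in fat PF, a log2 fold change of -0.54, and -0.62 in LA rats, short of the threshold of 1. The Cox8 level was Cox8a almost entirely: Cox8b, the heart and muscle form, was at 0 to 0.229 FPKM in the 8 fat libraries and 0 in liver, and Cox8c, the testis form, at 0.13 FPKM in 1 fat LA library and 0 in the others. Cox6a2 made up 0.125% ± 0.0579 of the summed Cox6a1 and Cox6a2 level in fat PF and 0.232% ± 0.104 in fat LA. Cox6b1, Cox7a1, Cox7b2 and Ndufa4l2 were not among the 22517 symbols under those names, so no level or share here includes them.

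The other subunit genes that passed were closer to the threshold. Uqcr, a small subunit of complex III, was at 189.5 to 203.5 FPKM in liver PF and 340.4 to 548.4 in fat PF, a log2 fold change of 1.16 (SE 0.137), with 1.05 (SE 0.105) in LA rats. Its neighbour Uqcrq went the other way, at 96.8 to 112.9 FPKM in liver PF and 40.5 to 69.5 in fat PF, a log2 fold change of -0.95, short of the threshold of 1. Ndufs4, an accessory subunit of complex I needed for its assembly, was at 24.5 to 28.3 FPKM in liver PF and 46.2 to 63.7 in fat PF (log2 fold change 1.05, SE 0.111), and Ndufb3 gave 1.05 (SE 0.139). Ndufb8 in LA rats was at 135.0 to 139.3 FPKM in liver and 247.4 to 342.3 in fat (log2 fold change 1.03, SE 0.112). Leaving out fat PF replicate 4 took Ndufs4 to 0.999 and Ndufb3 to 0.99, under the threshold, and the PF count to 6. Cox4i2 and Cox6b2 then fell below the filter, as they did without any other fat library. Ndufb8 dropped to 0.93 without fat LA replicate 1. The non-subunits Cox4nb (1.33 in PF, 1.17 in LA) and Atp5s (1.62 and 1.36) were among the genes higher in fat.

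The c subunit of ATP synthase, the ring protein that protons turn, is encoded by Atp5g1, Atp5g2 and Atp5g3, which yield the same mature protein from different precursors. Atp5g1 was at 370.0, 351.0, 323.1 and 336.2 FPKM in liver PF and at 92.1, 126.0, 73.8 and 107.3 FPKM in fat PF, with no overlap. Its log2 fold change was -1.81 (SE 0.149, limma adjusted p = 4.8e-07) in PF rats and -1.67 (SE 0.141, limma adjusted p = 1.1e-06) in LA rats. As a share of the 3 genes, Atp5g1 was 28.1% ± 1.28 in liver PF, 27.7% ± 0.954 in liver LA, 9.70% ± 0.813 in fat PF and 10.3% ± 0.526 in fat LA (SD, n = 4). Atp5g3 took 44.6% ± 1.61 in liver PF and 66.1% ± 2.46 in fat PF, with 46.1% ± 0.975 and 62.6% ± 1.44 in LA. Atp5g2 was 27.3% in liver PF and 24.2% in fat PF, and 26.1% and 27.1% in LA. Across the fat libraries that differed most in level, the Atp5g1 share stayed between 9.14% and 11.0%, so the shared shift left this ratio within a narrow range.

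**Figure D5:**
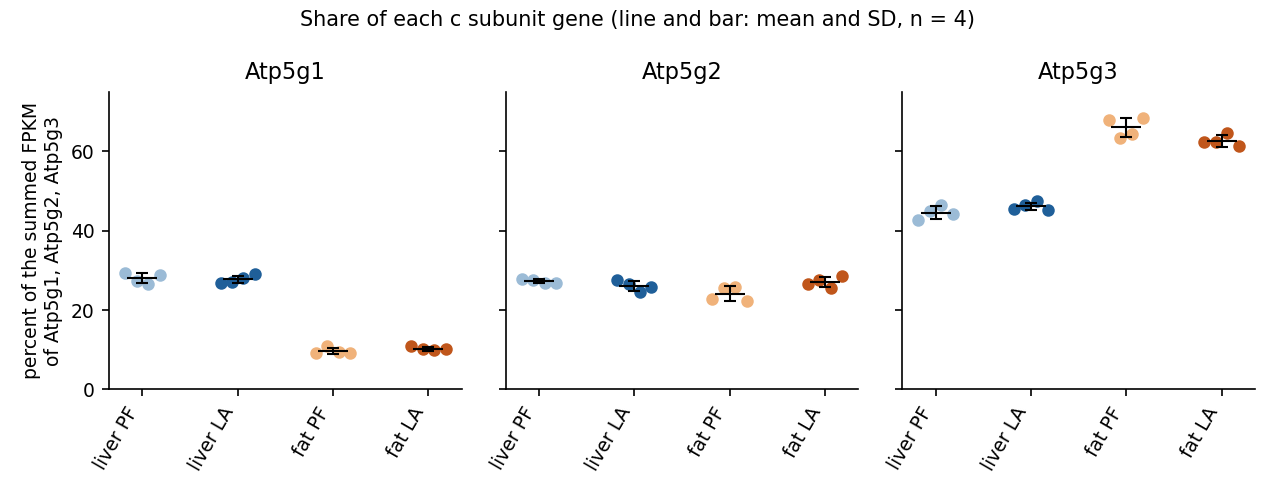
Percent of the summed FPKM of Atp5g1, Atp5g2 and Atp5g3 taken by each gene, with points for libraries, lines for means and bars for SD (n = 4). Atp5g1 takes 28.1% in liver PF and 9.70% in fat PF and Atp5g3 takes 44.6% and 66.1%, with no overlap between tissues.

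Genes linked to the chain were compared between tissues on the same deposited scale. Of 12 citrate cycle genes, 6 were higher and 1 lower in fat under each feed, beside 36.3% higher and 11.1% lower of all genes in PF and 36% and 10.5% in LA. With each library centred on its median the counts were 5 higher and 2 lower in PF and 5 and 3 in LA. Cs, citrate synthase, was higher by 2.56 in PF and 2.15 in LA, and Idh3a, a subunit of isocitrate dehydrogenase, by 2.56 and 2.08 (log2 fold changes). Suclg2, a subunit of the GTP-forming succinyl-CoA ligase, was lower, at -1.23 and -1.32. Of 35 assembly factors, 4 were higher and 3 lower in PF, and 3 higher and 2 lower in LA, with medians of 0.09 and 0.03, below the 0.66 and 0.65 of all genes. After centring, 2 assembly factors were higher and 9 lower in PF and 2 higher and 13 lower in LA, beside 21.2% higher and 16.4% lower of all genes in PF and 20.4% and 16.6% in LA. Of 12 subunits and carriers outside the rule, 4 were higher and 1 lower in fat under each feed. Their medians were 0.35 in PF and -0.00 in LA, below the median gene, and the lowest value was -1.4 under each feed. Among them Slc25a4, the muscle-type carrier that exchanges ATP for ADP, was higher in fat by 5.60 in PF and 5.38 in LA. The uncoupling protein relative Ucp2 was higher by 3.86 and 4.01. After centring, 4 were higher and 2 lower in PF and 3 and 2 in LA. The 68 mitochondrial ribosomal genes had medians of 0.10 and 0.06.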

How the data were processed

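RNA of liver and epididymal fat was sequenced by the submitters from TruSeq V2 libraries, which do not keep strand. Tools named in the submitters' processing notes are TopHat (listed as 0.12.8), Cuffdiff and CASAVA 1.8.2. Genome build and annotation: not given in the sources used here. What the authors deposited is FPKM per gene for each library. The files hold no counts, so absolute depth is unknown; relative depth came from the steps between low values.

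Values were taken as log2(FPKM + 1), a scale that understates changes of low genes. A gene entered a fit when 4 or more of its libraries reached 1 FPKM. Tests used limma 3.58.1 in R 4.3.3 (trended variances), with Benjamini-Hochberg adjustment over all genes tested, after the script was tested on simulated data. There, log2 changes of 0.5 were recovered for 63% of changed genes in the liver feed comparison and 40% in fat. For the difference of feed effects 19% were recovered, so changes of that size can be missed. At a log2 change of 1 the shares were 92%, 84% and 79%. Changes were simulated only in genes above a minimum mean level, with noise independent between genes. A shift shared by genes, as among the fat members, was not simulated. The median SD of the members in fat was above that of all genes, so the fat shares can overstate recovery for them. P-values measure the spread between the 4 rats' libraries of a group. Without strand, overlapping antisense reads cannot be told apart, and subunit genes have processed pseudogenes that can share reads.

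The members and gene lists were chosen with earlier results of these data known. Named were all members that passed; the highest, lowest and smallest-p members of each complex; the most variable in fat; isoforms; and members at 0. Alternatives were another pseudocount (0.1), no filter, median centring, a replicate block, 1 model of all 16 libraries, no fold threshold, and leaving out each library. The result for 1 citrate cycle gene is not reported here.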

Additional observations from a re-analysis of the deposited data

Results flagged for a closer look

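Of 109 sets of 4 libraries checked, 1 value stood far from the other 3 in 2 sets; chance gives about 1 in 20. Atp5b in fat PF replicate 3 was at 1122 FPKM, against 1664, 1638 and 1645 in the other fat PF libraries, in the library where nearly all members were lowest. Ndufs4 in liver PF replicate 3 was at 24.53 FPKM, against 28.07, 28.18 and 28.3.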

How the results depend on the processing

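No called value changed direction; the pseudocount of 0.1 and dropping the filter moved no count of members by over 1.5 times. In liver the feed comparison called 1 member in a model of all 16 libraries and 0 to 2 when 1 library was left out. With no fold threshold the tissue comparison called 45 members in PF and 44 in LA; leaving out 1 library gave 6 to 11 in PF. Leave-one-out medians of complex IV between tissues ran from 0.52 to 0.83 in PF and 0.49 to 0.77 in LA. Those without a fat library lack Cox6b2 and Cox4i2, which then fall below the filter.

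Median centring took the tissue medians in PF to -0.34 for all members, -0.35, -0.52, -0.31 and 0.23 for complexes I to IV and -0.39 for ATP synthase, and in LA to -0.39, -0.38, -0.59, -0.43, 0.10 and -0.45, since it subtracts the shift of the median gene. In the order liver PF, liver LA, fat PF, fat LA, centred sums in FPKM were 22276, 20762, 17866 and 16475 for all members, 5554, 5074, 4136 and 3899 for complex I, 956, 902, 708 and 623 for complex II, 1385, 1337, 1237 and 1123 for complex III, 5991, 5641, 5638 and 5278 for complex IV, and 8390.0, 7808, 6146 and 5553 for ATP synthase.

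Without fat PF replicate 3 the median SD in fat PF was 0.124 for all members, 0.133, 0.0747, 0.111 and 0.139 for complexes I to IV and 0.123 for ATP synthase; leaving out any 1 library gave ranges of 0.124 to 0.308, 0.133 to 0.290, 0.0747 to 0.310, 0.111 to 0.352, 0.139 to 0.299 and 0.123 to 0.301.

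Whether the replicate numbers pair liver and fat libraries of 1 rat is not known. Between tissues, deviations of same-numbered libraries correlated at -0.04 to 0.38 in PF and -0.29 to 0.17 in LA. Deviations of 2 tissues need not correlate within a rat, so these values cannot decide it. Between feeds, where the rats differ, the values were -0.41 to 0.14. With the replicate number as a block, 2 members passed in liver, 0 in fat, 10 and 9 between tissues and 0 in the difference of feed effects. The unknown absolute depth limits members under about 1 FPKM, such as Cox6a2 and Cox8b.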
